A study of Rattus norvegicus with 7 samples.

Results

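The genes for proteasome subunits and assembly factors were examined in NR8383 rat alveolar macrophages exposed to zinc oxide nanoparticles (ZnO NPs). They were taken by name: a probe belonged when its gene name in the array files began with Psm, then a letter from a to g and a number. The rule gave 50 gene names, measured by 57 probes on 118 spots, of 36174 gene names, 45598 probes and 58717 spots in all. NR8383 is a continuous cell line from lung lavage of a normal rat. It was grown with serum, then kept for 4 h without serum, either unexposed (control, 4 arrays) or with ZnO NPs (3 arrays), 1 array per biological replicate. The labels put the dose at 2 µg/mL and the study's methods give another dose, so that the arrays were grouped only as control and ZnO. No genetic change or further agent distinguishes the groups.

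The proteasome is a barrel-shaped protease that degrades proteins marked with ubiquitin. Alpha rings gate its 20S core, beta rings carry the proteolytic sites, and the 19S regulatory particle recognises, unfolds and feeds in the substrates. In macrophages, interferon replaces the catalytic beta subunits with inducible ones, which changes the peptides made for antigen presentation. Proteasome genes are known to rise together when the proteasome is blocked, through NRF1 (Nfe2l1), and under oxidative stress, through NRF2 (Nfe2l2). The comparison of ZnO with control arrays asks whether any of these groups of genes had changed in RNA level after 4 h.

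Levels below are log2 intensities relative to the 75th percentile of the array, and a difference is ZnO minus control on that log2 scale, with its limma 95% interval. To be tested, a probe had to be well above background on each array of either group, and a gene takes its brightest tested probe. In all, 48 of the 50 genes were tested, and each of the 53 member probes tested was well above background on all 7 arrays. Psma8, an alpha subunit of the testis, passed on 3 of 4 control and 2 of 3 ZnO arrays and was not tested. Psmb11, the catalytic subunit of thymic epithelium, was well above background on 1 of 4 control and none of the ZnO arrays with 1 probe, and on none of the control and 1 of 3 ZnO arrays with the other. For Psmg3, an assembly chaperone, the files name no probe.

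All 7 arrays lay on 1 slide. The first number of the position code was 1 for the control arrays and 2 for the ZnO arrays. An effect of position on the slide therefore cannot be told apart from one of exposure. The raw 75th percentiles ran from 958 to 1603 intensity units, overlapping between groups, and no spot was saturated. In its quality check the extraction software marked control 3, control 4, ZnO 2 and ZnO 3 for evaluation and the other arrays as in range. The exposure was visible in the arrays. The zinc-binding metallothionein Mt2A was higher by 5.83, Mt1a by 3.403 and the zinc exporter Slc30a1 by 1.37, each at an adjusted p under 0.05 (limma). Of 13 macrophage markers, 10 were tested, none of them at an adjusted p under 0.05. At an unadjusted limma p under 0.05 there was 1, where 5.87% of all genes were. It was Csf1r, at -0.28 (interval -0.52 to -0.04). Marco and Adgre1 were not well above background, and the files name no probe for Itgax. Of the markers of other cells, 0 of 4 epithelial, 1 of 4 lymphocyte, 1 of 3 fibroblast and 2 of 3 endothelial genes reached that signal.

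The probes of the members on which the results turn are shown first, since each value rests on 60 bases of a transcript. They are given 5′ to 3′ with rn4 positions from the files, in pairs of genes compared below, and the capitals mark the longest stretch that the probes of a pair share.
Psmb5 (chr15:32690134-32690193, minus strand): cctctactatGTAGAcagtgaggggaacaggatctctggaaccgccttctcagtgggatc
Psmb8 (chr20:4787006-4787484, minus strand): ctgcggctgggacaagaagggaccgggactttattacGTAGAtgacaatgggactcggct
Psmb6 (chr10:57372332-57372391, plus strand): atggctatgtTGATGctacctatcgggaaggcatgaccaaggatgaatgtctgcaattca
Psmb9 (chr20:4806341-4806400, plus strand): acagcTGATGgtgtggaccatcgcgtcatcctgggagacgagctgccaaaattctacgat
Psmd14 (chr3:43696292-43699023, minus strand): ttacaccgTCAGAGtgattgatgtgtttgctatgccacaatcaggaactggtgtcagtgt
Psmd7 (chr19:37452992-37453051, minus strand): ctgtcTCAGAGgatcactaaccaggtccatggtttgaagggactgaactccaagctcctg
The shared stretch was 5 bases for the catalytic pairs and 6 for Psmd14 and Psmd7. Over all member probes of different genes the longest was 12 bases (Psmg1 and Psmd2), so that no probe of 1 member repeats a large piece of another. Each printed probe holds a reading frame without a stop codon. The Psmb8 and Psmd14 probes span 479 and 2732 bases of the genome and so lie across a splice junction, as 11 of the 54 member probes with a position do. Psmb8 is shown by the dimmer of its 2 probes, because the brighter has no position in the files.

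Neighbouring members were seen at several loci. Psmb8 and Psmb9 lie close together on chromosome 20, in the major histocompatibility complex. The probes of Psme1 (chr15:33715651-33715710) and Psme2 (chr15:33723033-33723182) also lie side by side. The Psma3l probe (chr6:93111009-93111068) is just upstream of the Psma3 probe (chr6:93112068-93112127) on the same strand, and the files list a Psma3 transcript for it too, so the value named Psma3l cannot be assigned to 1 of these genes.

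No proteasome gene passed the test. Of 48 genes, 0 had an adjusted p under 0.05 (limma, Benjamini-Hochberg over 20063 probes), against 0.0618% of all 16178 genes tested. The lowest adjusted p was 0.843, for Psmd7. At an unadjusted p under 0.05, 1 of 48 was higher and 0 lower, where 3.21% of all genes were higher and 2.66% lower. The differences ran from -0.09 (Psme4) to 0.28 (Psmc3ip), with a median of 0.03 against -0.00463 over all genes, and 35 of 48 were above 0 (48.4% of all genes were). With every probe tested, dim ones too, the order of the medians turned, at 0.0363 for the members and 0.0408 for all genes.

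The sign of such small differences rests on how arrays are scaled. With each array centred on its median, the median of the members was -0.00676 and 23 of 48 were above 0. With centring on spike-in RNA, which shifted the median of all genes to 0.09, it was 0.13 and 48 of 48 were above 0. Arrays of 1 group then lay far apart. The alpha ring medians ran from -0.64 to 0.43 on control arrays and from -0.76 to 0.84 on ZnO arrays. Only 0.204% of all genes then had an unadjusted limma p under 0.05. Centring moves every gene on an array alike, so the gap between the members' median and that of all genes changed little.

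**Figure D1:**
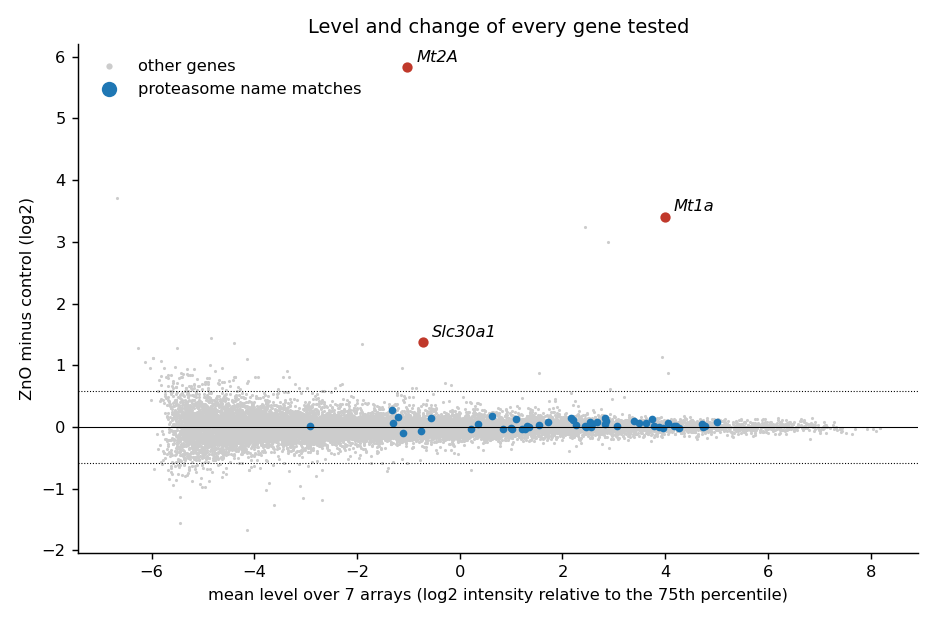
Difference between ZnO and control arrays (log2) against the mean level over 7 arrays (log2 intensity relative to the 75th percentile), 1 point per gene tested, with dotted lines at a fold of 1.5. The proteasome name matches (blue) lie between -0.09 and 0.28, while Mt2A, Mt1a and Slc30a1 (red) stand at 5.83, 3.403 and 1.37.

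Intervals were narrow for most members. For 47 of 48 genes the 95% interval, taken gene by gene, lay inside a fold of 1.5 either way, as for 82.8% of all genes. The exception was Psmc3ip, which is no proteasome subunit. Among the 45 genes left without Psmc3ip, Psme1-ps1 and Psma3l, the highest upper bound was 1.28-fold (Psmd5) and the lowest lower bound 0.793-fold (Psmg2). Standard errors of the members ran from 0.06 to 0.15, and 3 against 4 arrays limit them. RNA of a whole culture was measured, so that a change in all cells and a larger one in some of them cannot be told apart.

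Groups that did not overlap were met in 5 of 48 genes, all with every ZnO array above every control array, where 4% of all genes were higher and 3.46% lower in that way. These were Psma5, Psma3l, Psmc3, Psmd12 and Psmd5. Scaling again entered: under median centring only Psmb6 did not overlap, and under spike-in centring none of the 48. The share over all genes was not computed for those scalings.

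**Figure D2:**
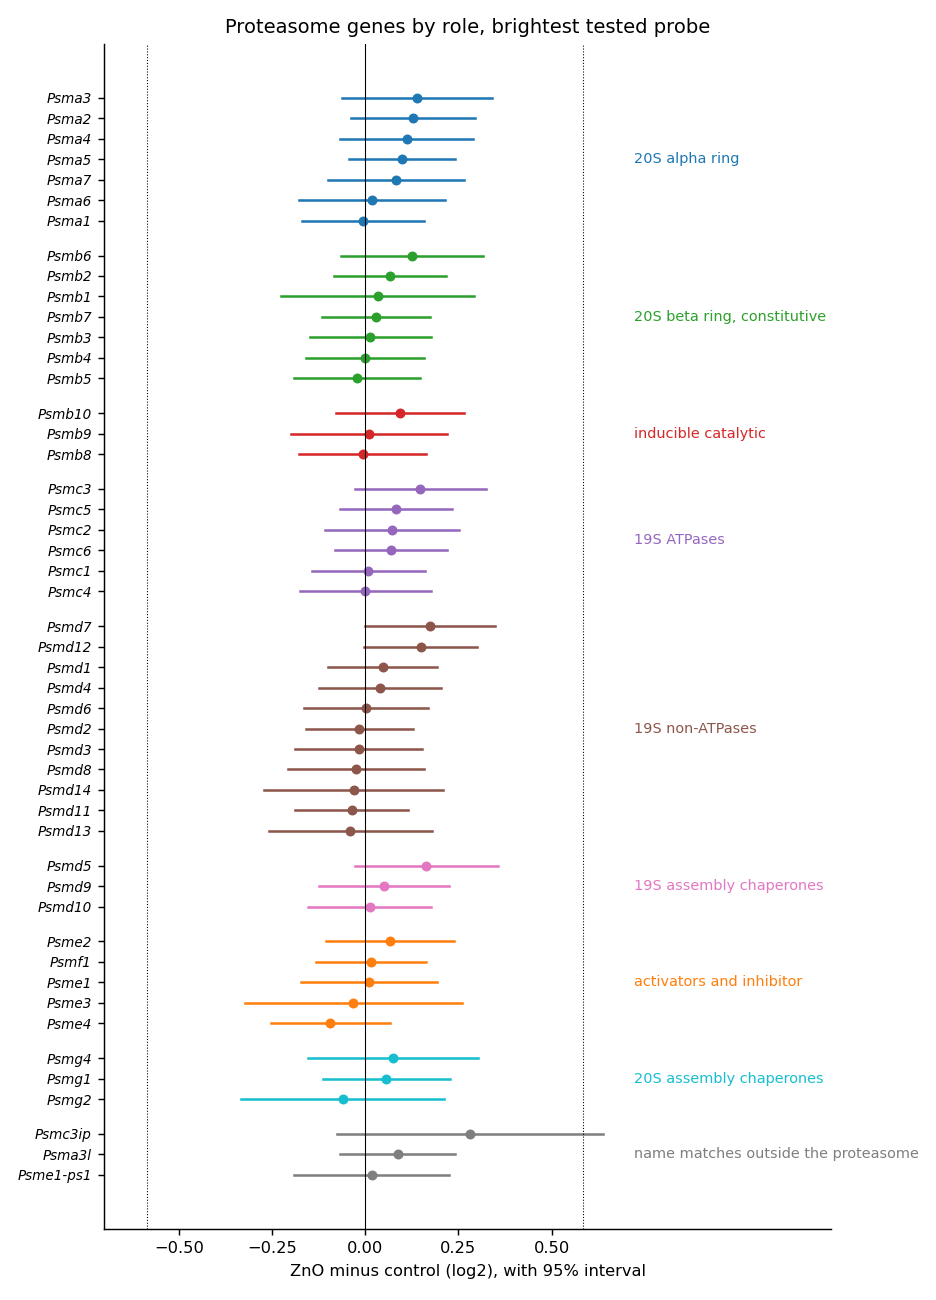
Difference between ZnO and control (log2, point) with its 95% interval (bar) for 48 genes, grouped by role, with dotted lines at a fold of 1.5. Points lie within 0.18 of 0 except Psmc3ip, and only the Psmd7 interval starts just above 0.

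The alpha ring, a circle of 7 subunits whose tails close the entry to the core, had differences between -0.00579 (Psma1) and 0.14 (Psma3), with 6 of 7 above 0. For Psma3 the control levels were -0.51, -0.61, -0.63 and -0.71 and the ZnO levels -0.62, -0.39 and -0.42. ZnO 2 and ZnO 3 were above all controls and ZnO 1 lay among them (difference 0.14, interval -0.06 to 0.34). Psma5 stood at 2.75, 2.84, 2.80 and 2.81 in control and at 2.91, 2.88 and 2.91 in ZnO. Its groups did not overlap, and yet the difference was only 0.10 (SE 0.06, limma adjusted p = 0.924). The remaining alpha genes were Psma2 at 0.13, Psma4 at 0.11, Psma7 at 0.08 and Psma6 at 0.02, each with an interval that held 0.

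The median over the 7 alpha genes of the level relative to the control mean was 0.05, 0.08 and 0.12 on the ZnO arrays. On the control arrays it was -0.05, 0.04, -0.00189 and -0.05, so that the ZnO arrays were all above. The 6 ATPases had the same order, with 0.05, 0.08 and 0.07 on the ZnO arrays and a highest control value of 0.01. In the constitutive beta ring, the inducible subunits, the 19S non-ATPases, both groups of chaperones and the activators these medians overlapped. The order did not hold under every scaling: of 8 scalings, this one included, the ZnO arrays were all above in 4 for the alpha genes and in 4 for the ATPases. Under median centring the ZnO medians of the alpha genes reached down to -0.07 and the control medians up to 0.08. All genes of an array share its scaling, and no share for other gene sets was computed.

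**Figure D3:**
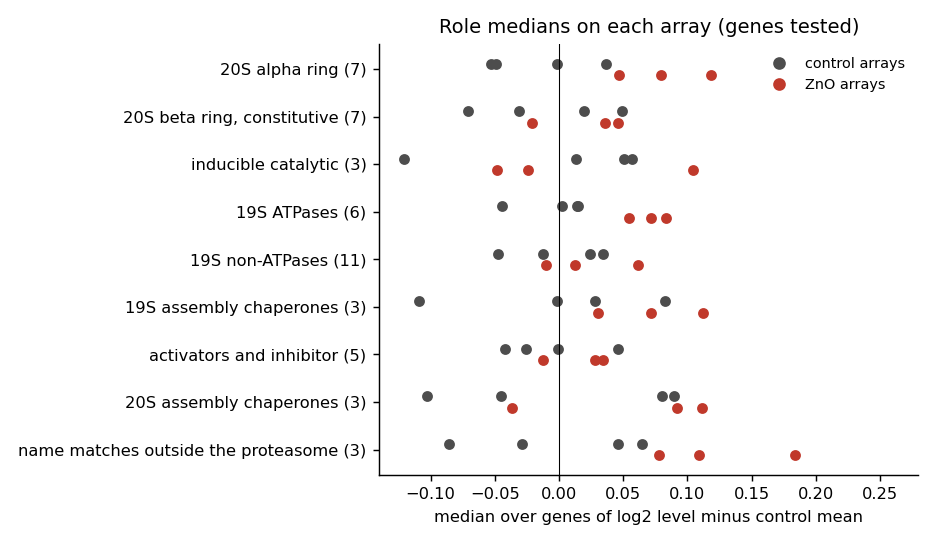
Median over the genes of each role (number tested in brackets) of the log2 level minus the control mean, 1 point per array. ZnO arrays lie to the right of all control arrays for the alpha ring, the ATPases and the 3 name matches outside the proteasome, and overlap them elsewhere. That order was kept in 4 of 8 scalings by the alpha ring and by the ATPases and in 2 of 8 by the name matches. The name matches include Psma3l, whose probe may measure Psma3.

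In the constitutive beta ring, 5 of 7 genes were above 0. The members with structural roles were Psmb2 at 0.07, Psmb1 at 0.03, Psmb3 at 0.01 and Psmb4 at -0.000789. Psmb5, Psmb6 and Psmb7 encode the chymotrypsin-like, caspase-like and trypsin-like sites, and Psmb8, Psmb9 and Psmb10 the inducible subunits that replace them in that order. Psmb5 had control levels of 3.91, 3.98, 3.88 and 4.07 and ZnO levels of 3.98, 3.93 and 3.91, the lowest difference of this ring at -0.02. Its inducible counterpart Psmb8 stood at 4.79, 4.79, 4.75 and 4.61 in control and 4.79, 4.69 and 4.71 in ZnO (difference -0.00715). Both genes had ZnO arrays inside the control range.

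Psmb6 was at 3.59, 3.69, 3.67 and 3.85 in control and at 3.89, 3.77 and 3.82 in ZnO, a difference of 0.13 (interval -0.07 to 0.32). The fourth control array alone reached into the ZnO range. Psmb9 was at 2.53, 2.45, 2.48 and 2.26 in control and at 2.55, 2.38 and 2.39 in ZnO, a difference of 0.01. Its groups overlapped widely, with the lowest value in the fourth control array.

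Psmb7 levels were 1.55, 1.58, 1.49 and 1.504 in control and 1.56, 1.54 and 1.58 in ZnO (difference 0.03). Psmb10 was at 3.34, 3.42, 3.24 and 3.41 in control and at 3.46, 3.38 and 3.50 in ZnO, the highest difference of the inducible subunits at 0.09. One ZnO array lay inside its control range.

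Each inducible subunit was also set against its constitutive counterpart on the same array, a change that centring of the array cannot move. Quantile normalization or another background correction can move it, and the ratios were computed only from the levels given above. The log2 ratio Psmb8 over Psmb5 differed by 0.02 (interval -0.23 to 0.26, exact two-sided permutation p = 0.971), Psmb9 over Psmb6 by -0.11 (-0.47 to 0.24, exact permutation p = 0.457) and Psmb10 over Psmb7 by 0.06 (-0.05 to 0.18, exact permutation p = 0.200). With Psmd7 over Psmd14 below, 4 ratios were tested, over 35 splits of the arrays, and the lowest p adjusted over them was 0.571. The smallest p the splits allow is 0.0286. The intervals of the ratios are t intervals with the variance pooled over both groups, not limma intervals. Spreads were unlike: the SD of Psmb8 over Psmb5 was 0.16 in control and 0.03 in ZnO.

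**Figure D4:**
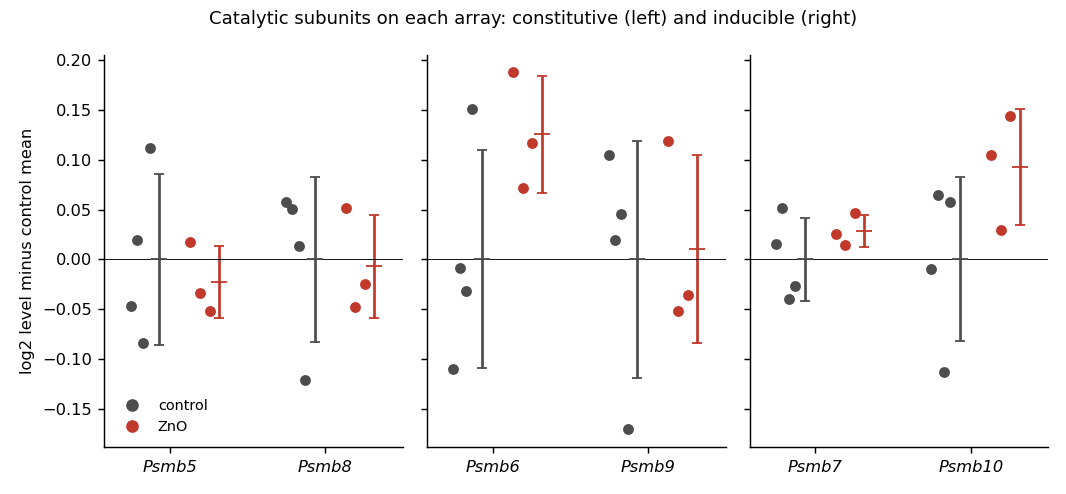
Log2 level minus the control mean on each array (points) for the constitutive catalytic subunits and their inducible counterparts, control in grey and ZnO in red, with mean and SD beside them. Psmb6 and Psmb10 have the higher ZnO points, with mean differences of 0.13 and 0.09, and control and ZnO points overlap in all 6 genes.

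The 19S ATPases form the ring that unfolds substrates. All 6 differences were above 0, from 6.47e-05 (Psmc4) to 0.15 (Psmc3). Psmc3 stood at 2.19, 2.13, 2.05 and 2.06 in control and at 2.20, 2.21 and 2.36 in ZnO. The groups did not overlap, but the highest control and the lowest ZnO array were 2.19 and 2.20 (SE 0.08, interval -0.03 to 0.32). For Psmc4 the control levels of 1.27, 1.32, 1.34 and 1.43 and the ZnO levels of 1.45, 1.27 and 1.31 covered the same range. Between them lay Psmc5 at 0.08, Psmc2 and Psmc6 at 0.07 and Psmc1 at 0.00761.

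Of the 11 non-ATPase subunits, 5 were above 0, with a median of -0.02. Psmd14 is the deubiquitinase of the lid and a zinc metalloprotease, and Psmd7 is its partner in the complex. Psmd7 was at 0.54, 0.66, 0.53 and 0.49 in control and at 0.75, 0.64 and 0.80 in ZnO. The second ZnO array was just below the second control array, and the other ZnO arrays were above all controls. The difference of 0.17 (SE 0.07, interval 4.11e-05 to 0.35) was the 1 member difference at an unadjusted p under 0.05 (limma adjusted p = 0.843).

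Psmd14 was at 0.86, 0.96, 1.18 and 1.12 in control and at 1.11, 1.00 and 0.88 in ZnO. The groups covered one range, and the difference was -0.03 (interval -0.27 to 0.21). The log2 ratio Psmd7 over Psmd14 differed by 0.21 (interval -0.15 to 0.56, exact permutation p = 0.286).

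Psmd12, a lid subunit, stood at 2.81, 2.80, 2.79 and 2.69 in control and at 2.90, 2.93 and 2.94 in ZnO. All ZnO arrays were above all control arrays, with a difference of 0.15 (interval -0.00218 to 0.30, limma adjusted p = 0.847). The lowest difference of the non-ATPases was that of Psmd13, another lid subunit, at -0.04. Its control levels of 1.07, 1.19, 1.31 and 1.37 enclosed the ZnO levels of 1.30, 1.16 and 1.13. The scaffold subunits Psmd1 and Psmd2 were at 0.05 and -0.02, the ubiquitin receptor Psmd4 at 0.04, and Psmd3, Psmd6 and Psmd8 at -0.02, 0.00226 and -0.03. Psmd11 had the probes that differed most, at -0.04 and -0.19. In the other 4 genes with 2 tested probes (Psma7, Psmb6, Psmb8 and Psmc1) the probes lay within 0.08 of each other.

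Assembly factors were measured for both particles. Of the 19S chaperones, Psmd5 had the highest difference and Psmd10 (gankyrin) the lowest, at 0.16 and 0.01, with Psmd9 at 0.05. Psmd5 was at -1.41, -1.19, -1.29 and -1.16 in control and at -1.15, -1.10 and -1.06 in ZnO. The groups did not overlap, though the highest control and the lowest ZnO array were within 0.01 of each other (interval -0.03 to 0.36). The 20S chaperones help to build the alpha ring. Of these, Psmg4 was at 0.07 (interval -0.15 to 0.30) and Psmg2 at -0.06 (-0.33 to 0.21), with Psmg1 at 0.06.

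The 11S activator genes Psme1 and Psme2, which interferon raises along with the inducible subunits, had differences of 0.00965 and 0.07, the latter the highest of the activators. The lowest was that of Psme4, the nuclear activator PA200. It was at -0.995, -1.02, -1.11 and -1.15 in control and at -1.19, -1.15 and -1.16 in ZnO. The ZnO arrays lay at and just beyond the lower end of the controls (difference -0.09, interval -0.25 to 0.07). Psme3, the nuclear activator PA28 gamma, was at -0.03. Psmf1, the proteasome inhibitor PI31, differed by 0.02.

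Among the 3 names that the rule takes but that are no separate proteasome parts, Psma3l differed by 0.09 and Psme1-ps1, a pseudogene, by 0.02. Psmc3ip, which works in meiotic recombination, was at -1.46, -1.31, -1.37 and -1.59 in control and at -0.77, -1.32 and -1.35 in ZnO. The first ZnO array stood apart from the other two, which were inside the control range. The difference of 0.28 (interval -0.08 to 0.64) fell to 0.09 without that array.

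The spread over spots of 1 array was set beside the spread between arrays for the genes with repeated spots. Psme2, Psmb8, Psma7, Psme1, Psma3l and Psmb4 were spotted 10 times, and the SD over spots of 1 array was 0.02 to 0.09. The pooled SD between arrays of 1 group was 0.05 to 0.08 for these 6 genes, and in Psma3l, at 0.0506, it was below the highest SD over spots, 0.0931. The SD over spots is that of single spots, whereas each array value averages the spots. These SDs are therefore not like measures, and which source of spread is larger cannot be read from them. Over all members the SD between arrays ran from 0.03 to 0.23.

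The RNA of genes whose proteins act on or with the proteasome gave a like picture. Of the genes for proteasome-bound and assembly proteins 8 were tested, of those for regulators 6 and for ubiquitin receptors that shuttle substrates 5. Of the ubiquitin genes 4 were tested, and of the genes for inducers of the inducible subunits 6. None was at an adjusted limma p under 0.05, where 0.0618% of all genes were. None was at an unadjusted p under 0.05 either, where 5.87% of all genes were, so counts of 0 in lists this short say little. The highest was Adrm1, a ubiquitin receptor of the 19S particle, at 0.15 (interval -0.10 to 0.41), and the lowest Nfe2l2 at -0.17 (-0.38 to 0.04). The Adrm1 signal was dim, with a mean level of -3.60 in control and -3.44 in ZnO. Nfe2l1, the known inducer of proteasome genes, was at -0.00174 (interval -0.27 to 0.26).

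Promoter sequences were set beside these values, because motifs of NRF1 and NRF2 and of interferon-regulated factors are known from such genes. RefSeq promoters (GRCr8, from 250 bases before to 50 after the start) were found for 43 members, and both strands were searched for 3 motifs. The core of the antioxidant response element, TGACNNNGC, was in 8 of 43 (18.6%), against 13.1% of 27457 genes. The core of the interferon-stimulated response element (GAAA, 2 other bases, GAAA) was in 7 (16.3%, against 4.12%), and the box CCAAT in 21 (48.8%, against 39.6%). Of the members that were tested, the 8 with the first motif had differences from -0.09 to 0.14 with a median of 0.05, and the 34 without it a median of 0.02. The 7 with the second ran from -0.00715 to 0.17, with a median of 0.07 against 0.02 for the 35 without it. For CCAAT the medians were 0.03 with and 0.02 without. No motif comparison was tested. Windows of 30 bases before the start, with the motif in capitals, are given for catalytic subunits and for Psme2.
Psmb5 (chr15:32047420-32047449, GRCr8, gene on the minus strand): cgtgaagctgTGACGTCGCggcgttgcccg
Psmb6 (chr10:55737854-55737883, GRCr8, gene on the plus strand): ctaaagagagTGACGGAGCgctttacgacc
Psmb10 (chr19:50743346-50743375, GRCr8, gene on the minus strand): aagcaaaggcGAAAGTGAAAgagaagatgc
Psme2 (chr15:33052785-33052814, GRCr8, gene on the minus strand): cctggagagtGAAAGCGAAAgctggggctg
None of the 3 motifs contains another, and a match says only that these letters are in the window.

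**Figure D5:**
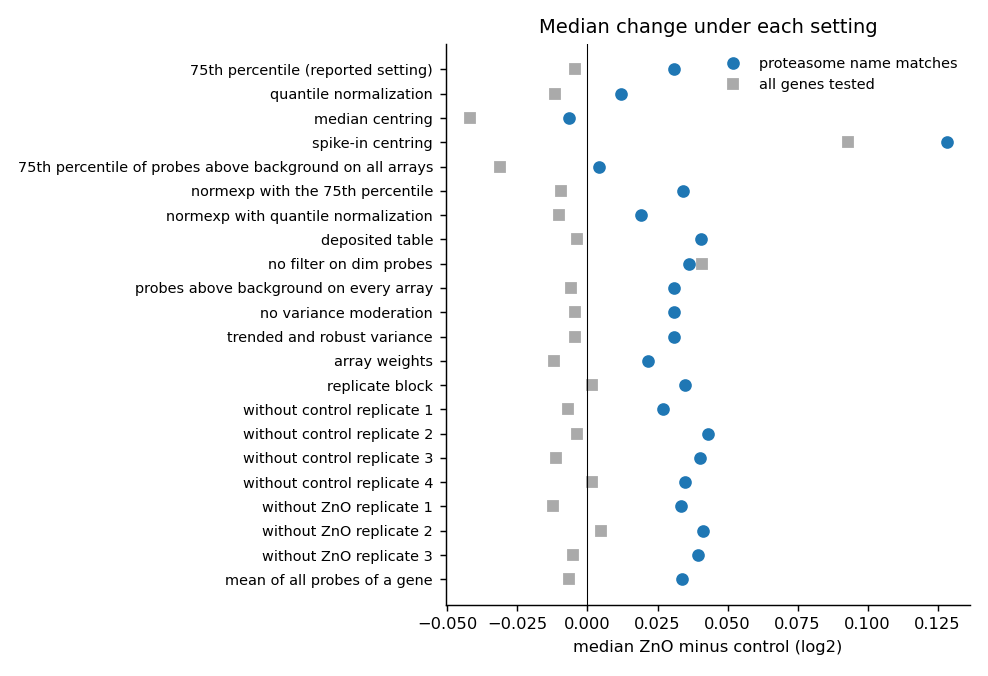
Median difference between ZnO and control (log2) of the proteasome name matches (blue circles) and of all genes tested (grey squares) under the reported setting and 21 alternatives. The members' median runs from -0.00676 under median centring to 0.13 under spike-in centring. It lies above the median of all genes except with no filter on dim probes, where the medians are 0.0363 and 0.0408.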

How the data were processed

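RNA of 7 NR8383 cultures was labelled with Cy3 and hybridised to one-color Agilent rat arrays. The authors extracted the intensity of each spot with Agilent Feature Extraction 11.0.1.1, which subtracts background and detrends within the array; the deposited files of single arrays hold this intensity, not normalized between arrays. The deposited table called normalized equals the median spot intensity for 100% of spots and served as an alternative. The authors used percentile normalization, with the percentile not given.

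Here log2 intensity minus the log2 of each array's 75th percentile was averaged over the spots of a probe, without outlier flags. Probes well above background on all arrays of a group were compared with limma 3.58.1 in R 4.3.3 (lmFit, eBayes), with Benjamini-Hochberg adjustment over 20063 probes; the script was tested on simulated data. Intervals cover 95%. The ratios were tested by exact permutation, and their intervals are pooled-variance t intervals. Tables were read with Python 3.11.15 and pandas 2.3.3. Of 57 member probes, 49 had an accession in RefSeq, each with the same symbol as in the files.

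The members and lists were chosen with earlier results of these data known. Named with values were, in each role, the genes with the highest and the lowest difference, the catalytic pairs, Psmd7 and Psmd14, genes with an unadjusted p under 0.05, genes whose probes differ by over 0.3 and untested genes. Genes whose groups did not overlap, and further examples, were named after their values were seen, as were the ratio tests. Replicates are biological per the series text. Alternatives were other scalings, background corrections, filters, variance models, array weights, probe rules, a replicate block and each array left out.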

Additional observations from a re-analysis of the deposited data

Results flagged for a closer look

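In each of 48 genes the highest or lowest of the 4 control arrays was set against the other three, by the gap to its nearest neighbour as a share of the whole range. In 3 genes that share passed Dixon's critical value for 4 samples. Psma4 was high in control 2, at 2.29 against 2.10 to 2.12 (share 0.913). Psmd12 was low in control 4, at 2.69 against 2.79 to 2.81 (share 0.847). Psmd6 was low in control 4, at 2.35 against 2.47 to 2.50 (share 0.840). Chance flags about 1 in 20 groups, and the ZnO group with 3 arrays was not examined in this way.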

How the results depend on the processing

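Under 21 alternatives the count of proteasome genes at an adjusted p under 0.05 stayed at 0. At an unadjusted p under 0.05 the count of 1 became 0 under median centring, spike-in centring, the 75th percentile of probes above background on all arrays, the replicate block, the deposited table, testing of every probe without a filter, and normexp (with quantile normalization or with the 75th percentile). It became 2 when a gene took the mean of its probes (6.03% of all genes passed). It was 3 with no variance moderation (6.45%) and with trended and robust variance (5.61%). With array weights it was 4 (Psma2, Psma3, Psmd12 and Psmd5, without Psmd7), where 11.9% of all genes passed. Where the count was 0 with all arrays, 0.204% to 6.24% of all genes passed. With an array left out the count ran from 0 to 2: 0 without control 1, control 3 or ZnO 3, and 2 without control 4. The shares of all genes there ran from 4.09% to 8.56%. The count of genes without overlap, 5 and all higher, was 3 with quantile normalization and normexp with quantile normalization (all higher), and 3 with the 75th percentile of probes above background on all arrays and the deposited table (Psma5 and Psmd12 higher, Psme4 lower). With normexp and the 75th percentile, 3 were higher (Psma5, Psmb2 and Psmd12) and 1 lower (Psme4). The count was 1 with median centring and 0 with spike-in centring. With an array left out, which makes overlap less likely, it ran from 5 to 11. Psme4 was then lower without control 4 or ZnO 2, and Psmd11 without ZnO 3. The share of all genes without overlap was not computed for other scalings or with an array left out. The median difference of 0.03 moved beyond the SD of 0.03 between control arrays to -0.00676 (median centring), 0.13 (spike-in centring) and 0.00421 (75th percentile of probes above background on all arrays). It ran from 0.03 to 0.04 with an array left out. Of 21 named genes, 9 kept the sign of their difference under all alternatives and 12, none of them called, changed it under at least 1.

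Pairing by replicate number was not evident. Residuals of same-numbered control and ZnO arrays correlated at -0.09, 0.21 and -0.24, and 1 of 3 ZnO arrays correlated best with its own number. With so few arrays this cannot exclude pairing. With the replicate block the median was 0.03, the same as without control 4. Replicate 4 exists only in control, so control 4 does not enter the difference under the block. Overlap is read from the array values and cannot change with a block. Signal limits Psma8 and Psmb11, which were near background.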
